A study of Mus musculus with 3 samples.

Results

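The mouse genes named Zfp and a number code for zinc finger proteins and form a large group of genes with a shared name. All rows of the expression table whose symbol is Zfp followed by digits only were taken, leaving out Zfp42 and Zfp36, which belong to other families, and a gene was kept where its mean level reached 5 counts per 1000000 UMIs in at least 1 stage. This left 196 genes of 307 such rows and of 14133 genes in the table. Levels chose the members, so the levels are given as a description, and a gene that passed only through the stage where it was high had to differ between stages. The members nearest to the minimum were Zfp651, Zfp867 and Zfp825, with means of 5.016, 5.025 and 5.035 in their highest stage on that scale. Zfp931, Zfp429 and Zfp87, with 4.990, 4.857 and 4.719, lay just under it.

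The measurements came from female primordial germ cells, the precursors of oocytes, sorted from fetal ovaries of C57BL/6 mice as Oct4-EGFP-positive cells, a reporter of the pluripotency gene Pou5f1. All groups share the strain and the reporter. They differ in age, with 1 library each at embryonic day (E) 12.5, 14.5 and 16.5, an interval in which female germ cells leave mitosis and pass into meiotic prophase. The ends of single RNA molecules were counted in droplets by unique molecular identifiers (UMIs).

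C2H2 zinc finger proteins carry short repeated folds that each hold a zinc ion and read a few bases of DNA. In many of them the fingers follow a KRAB box, a domain that binds the corepressor TRIM28 (KAP1), which brings in the histone methyltransferase SETDB1, HP1 proteins and DNA methylation. In the germ line and the early embryo such proteins are known for silencing retroelements and guarding imprints, while zinc finger proteins without the box act in transcription, chromatin, RNA processing and translation. The KRAB zinc finger genes lie in clusters that arose by duplication.

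Whole UMI counts were summed over the germ-cell-like cells of each stage, and a level is given as counts per 1000000 UMIs (CPM). Since a molecule gives 1 tag at its 3′ end whatever its length, levels of different genes were compared without dividing by length. There was 1 library per stage and so no spread between samples. No test was made, the 95% intervals cover counting error only, and an effect of stage cannot be told apart from one of library. A difference was called where it reached 2-fold. The sums held 125161525 UMIs from 4678 cells at E12.5, 102506950 from 8903 cells at E14.5 and 68980723 from 5312 cells at E16.5, with median depths of 26710, 11002 and 12632 UMIs per cell. The labelled cell type was checked against markers: in each of the 10 germ-cell-like clusters, 17 to 24 of the 24 germ cell markers were each found in at least 10% of cells, while 0 to 3 of the 16 markers of pregranulosa cells reached that share. A pregranulosa-like cluster of 25, 166 and 22 cells in time order, with all 16 pregranulosa markers but also 21 of the germ cell markers, was left out of the sums. In the sums the 16 pregranulosa markers measured reached 34.9, 32.6 and 15.5 CPM together the 3 endothelial markers 66.0, 14 and 14.6 CPM, and the 4 erythroid markers 0.304, 11.9 and 76.7 CPM, against 9353, 9396 and 11413 CPM for the germ cell markers. Their part in the members' values was not tested. The E12.5 library, labelled female, held a cluster of 629 cells in which 91.6% had a UMI of a Y-linked gene, while the Y-linked genes had 0 UMIs at the later stages. Barcodes were shared by 58 cells of E12.5 and E14.5, 72 of E14.5 and E16.5, and 43 of E12.5 and E16.5.

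The 4 promoters below show what lay upstream of members with some of the largest differences. They come from RefSeq on build GRCm38.p6, each from 250 bases before to 50 after the gene's start, 5′ to 3′ on the gene's strand. Capitals mark 3 words searched on both strands: CACGTG, the E-box bound by MAX and MGA, which repress germ line genes in stem cells, CCTCAG, which lies within the motif of the meiotic initiator STRA8, and GCGCATG, which lies within the NRF1 motif. Zfp819 (chr7:43606919-43607218, plus strand), Zfp459 (chr13:67421369-67421668, minus strand) and Zfp296 (chr7:19577037-19577336, plus strand) were much lower at the later stages and hold the E-box. Zfp541 (chr7:16071595-16071894, plus strand) was higher and holds none of the 3 words. Its RefSeq start lies inside the gene as GENCODE draws it. The 4 were chosen after their levels and promoters were seen, and they do not stand for the other members. At E16.5 over E12.5, CACGTG was in 4 of 20 promoters of lower members and in 3 of 85 of higher members. Zfp64, Zfp428 and Zfp710 were also lower, and their promoters do not hold it.
Zfp819: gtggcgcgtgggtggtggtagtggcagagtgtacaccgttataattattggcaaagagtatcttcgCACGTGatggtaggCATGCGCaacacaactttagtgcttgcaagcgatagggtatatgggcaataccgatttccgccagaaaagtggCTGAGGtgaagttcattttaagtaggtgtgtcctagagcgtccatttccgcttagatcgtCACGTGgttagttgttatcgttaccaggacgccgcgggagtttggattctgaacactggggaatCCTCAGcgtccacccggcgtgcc
Zfp459: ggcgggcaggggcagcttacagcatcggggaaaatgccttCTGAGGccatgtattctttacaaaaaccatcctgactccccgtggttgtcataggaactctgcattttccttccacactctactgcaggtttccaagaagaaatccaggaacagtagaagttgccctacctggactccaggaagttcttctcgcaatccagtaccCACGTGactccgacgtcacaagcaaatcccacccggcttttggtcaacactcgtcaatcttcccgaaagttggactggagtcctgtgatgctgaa
Zfp296: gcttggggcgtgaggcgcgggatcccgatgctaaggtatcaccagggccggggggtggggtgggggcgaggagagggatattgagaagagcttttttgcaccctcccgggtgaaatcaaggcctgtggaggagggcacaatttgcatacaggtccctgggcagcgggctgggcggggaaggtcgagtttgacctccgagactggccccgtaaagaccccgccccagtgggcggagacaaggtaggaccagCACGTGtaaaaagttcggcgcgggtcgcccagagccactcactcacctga
Zfp541: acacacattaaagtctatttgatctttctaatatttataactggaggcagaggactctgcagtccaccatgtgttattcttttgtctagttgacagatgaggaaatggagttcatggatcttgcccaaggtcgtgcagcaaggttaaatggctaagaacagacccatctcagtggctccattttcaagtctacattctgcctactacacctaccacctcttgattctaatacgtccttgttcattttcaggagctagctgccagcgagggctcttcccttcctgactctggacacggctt

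As a family, the members took a larger share of the germ cells' RNA at each later stage. They held 0.315% of UMIs at E12.5, 0.404% at E14.5 and 0.451% at E16.5, with exact binomial 95% intervals of 0.314 to 0.316%, 0.403 to 0.405% and 0.450 to 0.453%. Over single cells the median share was 0.314%, 0.406% and 0.452%. The 88 members with a KRAB box, found by a profile search of the translated genes, held 0.0547%, 0.0875% and 0.0969%, and the 108 without one held 0.260%, 0.316% and 0.354%. Without a box means here that the search gave no hit, and it can miss a box unlike the sequences it was built from. For comparison, the 68 genes of the Zbtb, Zkscan, Zscan, Klf and Prdm families with the same minimum, which also carry C2H2 fingers, held 0.106%, 0.101% and 0.130%. The 111 numbered rows under the minimum added 0.0139%, 0.0185% and 0.0191%.

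Single cells also showed more different members when they were compared at 1 depth. With each cell thinned to 5000 UMIs, the median cell had a UMI of 13 members at E12.5, 17 at E14.5 and 19 at E16.5, with quartiles of 11 to 15, 14 to 20 and 16 to 22. Thinning left out 11 cells of E14.5 and 25 of E16.5. At full depth, where the E12.5 cells were the deepest, the order differed, with 47.0, 33.0 and 39.5 members. Free RNA in the droplets can add UMIs to any cell, and its part was not tested.

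**Figure D1:**
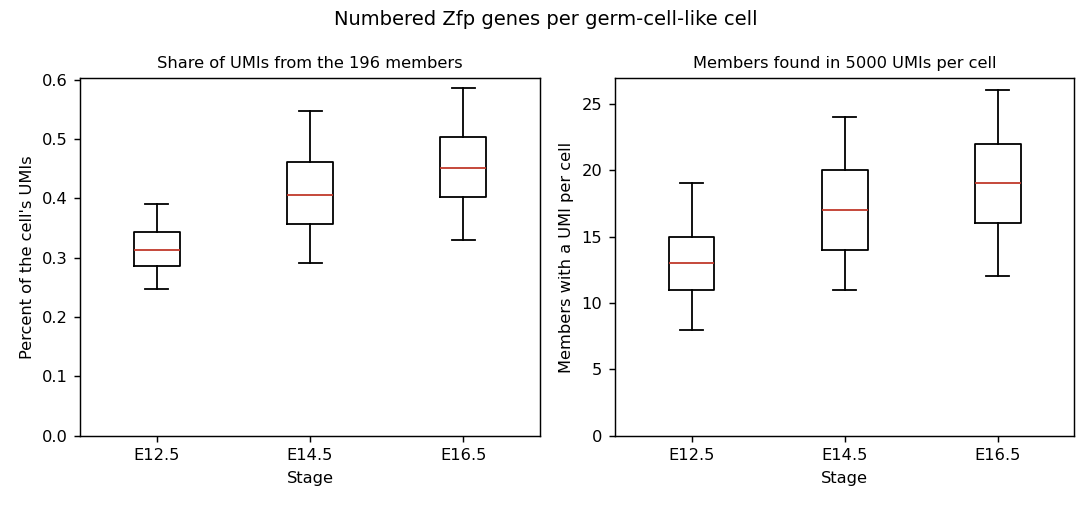
Share of each germ-cell-like cell's UMIs that came from the 196 members (left, percent) and number of members with a UMI in 5000 UMIs per cell (right), by stage. Boxes are quartiles, lines medians and whiskers the 5th and 95th percentiles over cells of 1 library; medians were 0.314%, 0.406% and 0.452%, and 13, 17 and 19 members.

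Between E12.5 and the later stages more members were higher than lower. At E14.5 over E12.5, 70 of 196 members (35.7%) reached a level 2-fold or more above that at E12.5 and 17 (8.67%) a level 2-fold or more below it, where 27.1% and 14.7% of the 10229 genes of the same minimum with a ratio were. At E16.5 over E12.5, 88 (44.9%) were higher and 23 (11.7%) lower, against backgrounds of 33.6% and 22.0% of 10236 genes. At E16.5 over E14.5 the members divided evenly, with 19 (9.69%) in each direction, against 12.1% and 15.1% of 10233 genes. The median log2 ratio of the members was 0.68, 0.13 and 0.75 for E14.5 over E12.5, E16.5 over E14.5 and E16.5 over E12.5, beside 0.23, 0.05 and 0.31 over all genes of the same minimum. The 3 comparisons share their libraries. Scaling by the median of ratios instead of total UMIs moved the all-gene medians to -0.10, -0.00 and -0.06. The members then split 51 higher to 23 lower at E14.5 over E12.5 and 69 to 33 at E16.5 over E12.5, against backgrounds of 21% and 21.3%, and of 26.1% and 28.3%. With TMM scaling the splits were 51 to 21, against 22.1% and 20% of all genes, and 74 to 31, against 26.8% and 27.4%. Without the cells of the Y-linked cluster the splits were 71 to 17, against 26.9% and 14.8%, and 89 to 23, against 33.4% and 21.9%.

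By their course over the 3 stages, 92 members (46.9%) stayed within 2-fold at both steps, against 46.6% of all genes of the same minimum. The most frequent other course was a level at least 2-fold higher at E14.5 and then within 2-fold, in 55 members (28.1%, against 18.4% of all genes of the same minimum). A rise at both steps was seen in 11 members (5.61%, against 6.12% of all genes), among them Zfp541, Zfp711, Zfp612, Zfp438, Zfp956 and Zfp964. Both steps down were seen in 6 (3.06%, against 5.66%): Zfp64, Zfp428, Zfp459, Zfp710, Zfp750 and Zfp825. The highest stage was E12.5 for 37 members (18.9%), E14.5 for 58 (29.6%) and E16.5 for 101 (51.5%), while over all genes of the same minimum it was 34.5%, 22.2% and 43.4%.

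**Figure D2:**
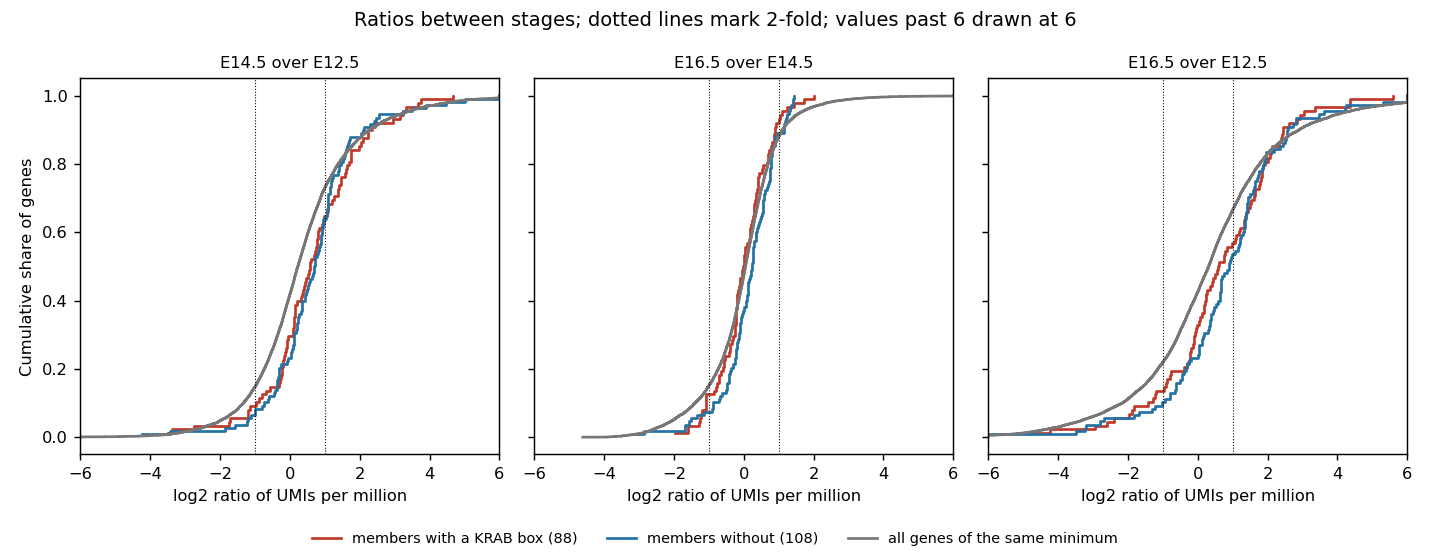
Cumulative share of genes (y axis) by log2 ratio of CPM (x axis) for the 3 comparisons, for the 88 members with a KRAB box, the 108 without and all genes of the same minimum. Around the middle of their range the member curves lie to the right of all genes in the outer panels, with member medians of 0.68 and 0.75 against 0.23 and 0.31, and close to them in the middle panel.

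Members with and without a KRAB box both included more higher than lower genes when E12.5 was the base. At E16.5 over E12.5, 38 of 88 with the box were higher (43.2%) and 12 lower (13.6%), with a median log2 ratio of 0.59. Of 108 without it, 50 were higher (46.3%) and 11 lower (10.2%), with a median of 0.89. Over all genes of the same minimum 33.6% were higher and 22.0% lower. At E14.5 over E12.5 the counts were 31 higher (35.2%) and 8 lower (9.09%) with the box and 39 (36.1%) and 9 (8.33%) without. The shares of all genes were 27.1% and 14.7%. At E16.5 over E14.5 the counts were 7 (7.95%) and 11 (12.5%) with the box, with a median of -0.01. Without it they were 12 (11.1%) and 8 (7.41%), with a median of 0.23. In both classes these shares lay under the 12.1% and 15.1% of all genes. The median number of fingers was 11 in members with the box (2 to 23) and 7.0 in those without (0 to 36). Across the 196 genes, the number of fingers and the log2 ratio of E16.5 over E12.5 had a Spearman rho of 0.10, which is given as a description, since genes of 1 cluster share their origin.

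The 2 members with the largest gain of E16.5 over E12.5 were close to silent at E12.5. Zfp541, which codes for a chromatin protein needed for meiosis in male mice, had 0.120 CPM at E12.5, 32.7 at E14.5 and 76.0 at E16.5. The E12.5 value rested on 15 UMIs, and E16.5 over E12.5 was 634-fold (log2 9.31, interval 8.58 to 10.15). The gene lies on chr7:16061814-16096334, plus strand. Zfp711, on the X chromosome at 112600526 to 112635070, is the counterpart of a human activator gene mutated in inherited intellectual disability. It had 0.336, 10.9 and 27.0 CPM in time order, an 80.5-fold difference of E16.5 over E12.5 (log2 6.33, 5.89 to 6.81). For both genes the 3 intervals did not overlap, and each stage was higher than the one before.

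Zfp672, on chr11:58315114-58330339, minus strand, reached the highest level among the 8 largest gains. Its level was 4.0 CPM at E12.5, 88.6 at E14.5 and 159 at E16.5, which is 39.7-fold for E16.5 over E12.5 (log2 5.31, 5.18 to 5.44). It overlaps an antisense transcript, 1700047K16Rik, and whether the authors' counting used strand was not given in the sources used here. Zfp612, a KRAB gene on chr8:110079746-110092741, had 2.21, 11.2 and 45.0 CPM and kept climbing at the second step, with 5.10-fold at E14.5 over E12.5 and 4.0-fold at E16.5 over E14.5. The other members among the 8 largest gains of E16.5 over E12.5 stayed at low levels. Zfp316 had 0.152, 3.85 and 7.28 CPM, and Zfp964 0.304, 3.02 and 6.19 CPM. Zfp174 had 0.312, 3.53 and 5.97 CPM and Zfp362 0.288, 4.28 and 5.41 CPM. Each of these 4 rested on 19 to 39 UMIs at E12.5, and Zfp174 overlaps Zfp597 on the other strand.

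**Figure D3:**
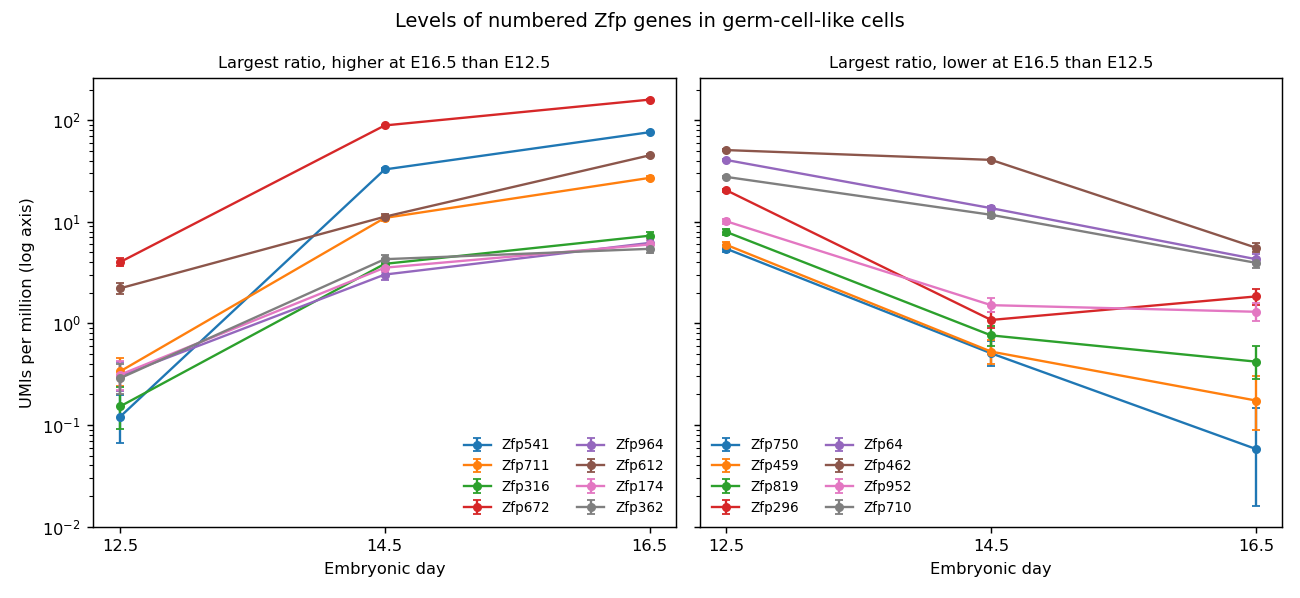
CPM (log axis) by embryonic day for the 8 members with the largest ratio of E16.5 over E12.5 in each direction; bars are exact Poisson 95% intervals of 1 library. In the left panel Zfp672 has the highest level at each stage, ending at 159 CPM, and Zfp541 the steepest course; in the right panel Zfp750 ends at 0.0580 CPM, while Zfp462 stays at 40.6 CPM at E14.5 before it drops.

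Some members peaked at E14.5. Zfp235, a KRAB gene, had 1.36 CPM at E12.5, 17.1 at E14.5 and 7.19 at E16.5, so that E14.5 was 12.6-fold over E12.5 and E16.5 2.38-fold under E14.5. Zfp503, a regulator of forebrain and limb development, had 1.49, 7.88 and 2.75 CPM. Zfp398 was high at both later stages, with 8.01, 70.5 and 61.0 CPM, and so was its neighbour Zfp786, with 0.423, 5.72 and 4.32 CPM. A different set was higher only at the last step by the 2-fold limit. Zfp560 had 12.4, 16.6 and 54.6 CPM, Zfp113 5.17, 5.76 and 15.7 CPM, and Zfp507 9.27, 10.4 and 27.7 CPM. Zfp770 had 7.10, 8.11 and 22.0 CPM and Zfp131 36.6, 39.4 and 86.8 CPM. For these 5 genes, E16.5 over E14.5 was 2.21-fold to 3.30-fold. Zfp438 and Zfp956 were higher at both steps, with 2.80, 7.47 and 19.7 CPM and with 1.19, 2.81 and 7.16 CPM; Zfp956 overlaps Zfp783 on the same strand.

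The largest losses also led to near silence. Zfp750, which drives epidermal differentiation, had 5.42 CPM at E12.5, 0.507 at E14.5 and 0.0580 at E16.5, where 4 UMIs were left. E16.5 was 93.6-fold under E12.5 (log2 -6.55, -8.43 to -5.18). Zfp459, whose promoter is printed above, had 5.92, 0.527 and 0.174 CPM, a 34.0-fold lower level at E16.5 than at E12.5 (log2 -5.09, -6.05 to -4.28), and 5.11% of the 50-base words of its last 500 bases occur in other genes. Zfp819, a KRAB protein that represses endogenous retroelements in mouse stem cells, had 7.93, 0.761 and 0.420 CPM, 18.9-fold lower at E16.5 (log2 -4.24, -4.82 to -3.71). Zfp296, a partner of KLF4 that promotes reprogramming to pluripotency, had 20.4, 1.08 and 1.84 CPM, 11.1-fold lower at E16.5 (log2 -3.47, -3.74 to -3.21), and overlaps Gemin7 on the other strand. In all 4 genes E14.5 was at least 10-fold under E12.5, and Zfp750 was a further 8.75-fold lower at E16.5 than at E14.5.

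Other losses came later or in both steps. Zfp462, a large protein of stem cell chromatin, had 50.7 CPM at E12.5, 40.6 at E14.5 and 5.55 at E16.5, so that most of its 9.14-fold difference lay in the second step (7.30-fold). Zfp64 had 40.5, 13.6 and 4.28 CPM and Zfp710 27.6, 11.7 and 3.94 CPM, with at least 2-fold at each step. Zfp428 was the second highest member at E12.5 and had 230.1, 114 and 36.0 CPM. It overlaps another transcript, AC161166.1, on the other strand. Zfp593 had 76.5, 21.1 and 21.9 CPM, all of its difference in the first step. Zfp936 had 15.3, 4.59 and 4.18 CPM, and 18.7% of its last 50-base words occur in other genes. Zfp7 dropped late, with 6.91, 3.50 and 1.15 CPM, and shares 40.7% of such words. The 3′ counts of both are therefore uncertain.

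Against these changes 4 of the most abundant members stayed within 2-fold. Zfp706, a protein of 76 residues that helps mouse stem cells leave the pluripotent state, was the highest member at every stage, with 323 CPM at E12.5, 339 at E14.5 and 284 at E16.5; 27.8% of its last 50-base words occur elsewhere in the transcriptome. Zfp622, a factor of large ribosomal subunit maturation, had 118, 222 and 201 CPM. Zfp207, also called BuGZ, which acts on the mitotic spindle, had 159.7, 105 and 101 CPM. Zfp91, a ubiquitin ligase, had 92.0, 99.2 and 145 CPM and overlaps Cntf on the same strand. The levels of some less abundant members were also nearly the same throughout, such as Zfp839 (19.0, 18.5 and 19.7 CPM) and Zfp335 (6.98, 6.58 and 7.61 CPM), with Zfp839 named after its values were seen. Zfp639 differed, with 35.2, 57.5 and 107 CPM and 3.06-fold at E16.5 over E12.5. The 8 highest members together held 37.3%, 28.6% and 27.1% of the members' UMIs in time order.

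Role lists were drawn up with earlier results of these data known, and their counts are descriptions. Of the proteins known to control imprints and retroelements, 5 reached the minimum: 0 were higher and 3 lower at both E14.5 and E16.5 over E12.5, beside the backgrounds above, and the same counts held under both other scalings at E16.5 over E12.5. The 3 were Zfp819, Zfp459 and Zfp932, and each had over 5 CPM at E12.5 only. They passed the minimum through the stage where they were high, so their lower later levels partly follow from the choice of members. Zfp932 had 9.88, 3.0 and 4.35 CPM, and 54.9% of its last 50-base words occur in other genes, so its reads may be split with close copies. Zfp568, which represses a placental Igf2 transcript, had 14.4, 13.8 and 10.9 CPM, and Zfp961 8.05, 11.6 and 8.67 CPM. The imprint guardians Zfp57 and Zfp445 lay under the minimum, with 0.431, 0.966 and 1.04 CPM and with 0.871, 0.956 and 2.35 CPM. These 2 were 2.42-fold and 2.70-fold higher at E16.5 than at E12.5. Zfp429, also under the minimum, had 1.69, 4.86 and 1.97 CPM, 2.88-fold higher at E14.5 than at E12.5. Zfp809, which silences leukaemia viruses in mouse stem cells, was also under it at 0.503, 0.429 and 0.391 CPM.

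Among 8 members listed as pluripotency or embryonic stem cell regulators, 1 was higher and 4 were lower at E16.5 over E12.5, where 33.6% and 22.0% of all genes were. A place on the list does not show that role for each gene. Beside Zfp296 and Zfp462, the lower ones were Zfp553 (28.9, 12.5 and 9.02 CPM) and Zfp532 (9.52, 6.21 and 4.67 CPM), the latter by only 2.04-fold. Zfp296 had over 5 CPM at E12.5 only, so its lower later level partly follows from the choice of members. Zfp217, a partner of the LSD1 demethylase complex, was the higher one, with 19.6, 43.6 and 45.6 CPM (2.32-fold), and lost its call under both other scalings. Zfp281, a repressor that moves stem cells towards the primed state, had 25.9, 35.7 and 46.2 CPM and stayed within 2-fold, as did Zfp143 (8.93, 7.25 and 14.1 CPM) and Zfp148 (15.5, 15.6 and 28.8 CPM).

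Members that act on RNA, translation or the spindle mostly stayed within 2-fold. Of 10, 2 were higher and 0 lower at E16.5 over E12.5, 2 higher and 1 lower at E14.5 over E12.5, and none passed at E16.5 over E14.5, and under the median of ratios 2 were lower at E16.5 over E12.5. These shares stand beside 33.6% and 22.0%, 27.1% and 14.7%, and 12.1% and 15.1% of all genes in the same 3 comparisons. Zfp365, under the minimum, had 0.983, 0.127 and 0.0870 CPM. Zfp318, which controls the splicing of immunoglobulin transcripts in mouse B cells, had 35.4, 97.5 and 134 CPM (3.79-fold at E16.5 over E12.5). Zfp346, a binder of double-stranded RNA, had 4.12, 6.43 and 10.8 CPM (2.63-fold). Zfp326, which couples transcription to splicing, had 39.9, 85.8 and 79.1 CPM, past 2-fold at E14.5. The RNA-binding protein gene Zfp106 had 107, 52.9 and 61.9 CPM, 2.01-fold lower at E14.5 than at E12.5. Zfp598, the ubiquitin ligase of collided ribosomes, had 28.8, 23.4 and 18.9 CPM. The splicing-related Zfp638 and Zfp830 had 45.4, 87.8 and 61.8 CPM and 22.6, 25.8 and 28.6 CPM.

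Of 11 members that act with chromatin, ubiquitin or SUMO, 4 (36.4%) were higher and 0 lower at E16.5 over E12.5, with the higher share close to the 33.6% of all genes and 22.0% of them lower, and 2 higher and 1 lower with the median of ratios. Besides Zfp541, Zfp217 and Zfp131, the higher one was Zfp687, with 14.9, 46.4 and 55.8 CPM (3.76-fold). Its partner in the same reader complex, Zfp592, had 9.60, 13.7 and 14.8 CPM. The counts rest on the lists: Zfp217 is on this list and on that of pluripotency and stem cell regulators. Zfp532, 2.04-fold lower at E16.5 than at E12.5, is only on the latter. The SUMO ligase gene Zfp451 had 36.6, 49.6 and 70.0 CPM and Zfp644, a partner of the G9a methyltransferase, 69.3, 53.6 and 91.1 CPM. Zfp668 (11.8, 12.9 and 12 CPM), like Zfp335, was nearly level, and Zfp516 had 12.9, 13.2 and 8.29 CPM. Zfp618, under the minimum, had 0.855, 1.51 and 3.74 CPM.

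Of the 8 developmental transcription factors at the minimum, 0 were higher and 4 lower at E16.5 over E12.5, where 33.6% and 22.0% of all genes were. The counts were 0 and 4 at E16.5 over E14.5 (12.1% and 15.1% of all genes), and 1 higher, Zfp503, and 2 lower at E14.5 over E12.5 (27.1% and 14.7%). Zfp750 had over 5 CPM at E12.5 only and Zfp503 at E14.5 only, so their directions partly follow from the choice of members. Beside Zfp750, Zfp64 and Zfp462, Zfp219, a cofactor of SOX9 in cartilage, was lower at E16.5 than at E12.5 (25.5, 18.8 and 10.3 CPM in time order). Zfp521, a regulator of progenitor cells, had 6.17, 6.74 and 3.55 CPM, and Zfp24, which acts in myelination, 10.5, 19.4 and 16.7 CPM. With either other scaling 5 were lower at E16.5 over E12.5. Of the 4 genes of this list under the minimum, Zfp536 and Zfp703 were past 2-fold higher at both later stages than at E12.5. Zfp536 had 0.0160, 0.224 and 3.71 CPM, and Zfp703 0.112, 2.01 and 1.04 CPM. Zfp423, with 0.551, 0.663 and 0.971 CPM, and Zfp384, with 3.98, 2.86 and 3.10 CPM, stayed within 2-fold.

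The partners through which KRAB proteins repress included higher and lower genes. Of 35 such genes at the minimum, 8 (22.9%) were higher and 6 (17.1%) lower at E16.5 over E12.5, both under the 33.6% and 22.0% of all genes, and 5 and 11 under both other scalings. Trim28, the corepressor itself, had 535 CPM at E12.5, 281 at E14.5 and 208 at E16.5 (2.58-fold lower at E16.5 than at E12.5). Setdb1 had 34.0, 105 and 113 CPM (3.31-fold higher), and Atf7ip2, a germ line partner of SETDB1, 6.94, 42.8 and 91.7 CPM (13.2-fold higher). Morc2a, a silencing ATPase, had 17.7, 75 and 95.7 CPM. The H3.3 loader Atrx, with 167, 43.2 and 25.6 CPM, and the NuRD subunit Mta2, with 46.4, 17.4 and 11.2 CPM, were lower at E16.5 than at E12.5.

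Some of the members sat in clusters on the chromosomes. Of 196, 51 lay on chromosome 7 and 21 on chromosome 17, and 63 lay in 14 runs of at least 3 members with gaps of at most 200 kb. The others lay outside such runs, and the shares of all genes on these chromosomes were not taken. Among the 14 runs, 3 held both a member 2-fold higher and one 2-fold lower at E16.5 over E12.5, 9 held higher members and no lower one, and 2 held lower members and no higher one. By sign alone, 8 runs had members on both sides of 0, 5 lay wholly above it and 1 wholly below. Of all 196 members 44.9% were 2-fold higher, 11.7% 2-fold lower and 142 above 0 in this comparison. Over all genes of the same minimum 33.6% were higher and 22.0% lower. Runs of other genes were not counted, so the tallies are not a result about neighbours. The longest run, 9 members from Zfp84 to Zfp260 on chromosome 7 (29768552 to 30107622, GRCm38), had log2 ratios of E16.5 over E12.5 from -1.96 to 3.05, with 2 higher and 1 lower. In the run that holds Zfp235 and Zfp428, on chr7:24081924-24515682, 4 of 6 were higher and Zfp428 was lower. Other runs held calls in 1 direction: on chr6:47819266-48086593, 4 of 7 members, Zfp398, Zfp786 and Zfp956 among them, were higher and 0 lower, with a range of 0.20 to 3.35. On chr17:32765496-33005457 the run of Zfp871, Zfp870, Zfp472 and Zfp952, all with a KRAB box, had 0 higher and 3 lower, with a median of -1.62. Zfp952 had 10.1, 1.51 and 1.3 CPM there and Zfp870 6.36, 7.05 and 1.80 CPM, the second falling only after E14.5. Runs were picked by position, and the ones described were chosen after their values were seen.

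**Figure D4:**
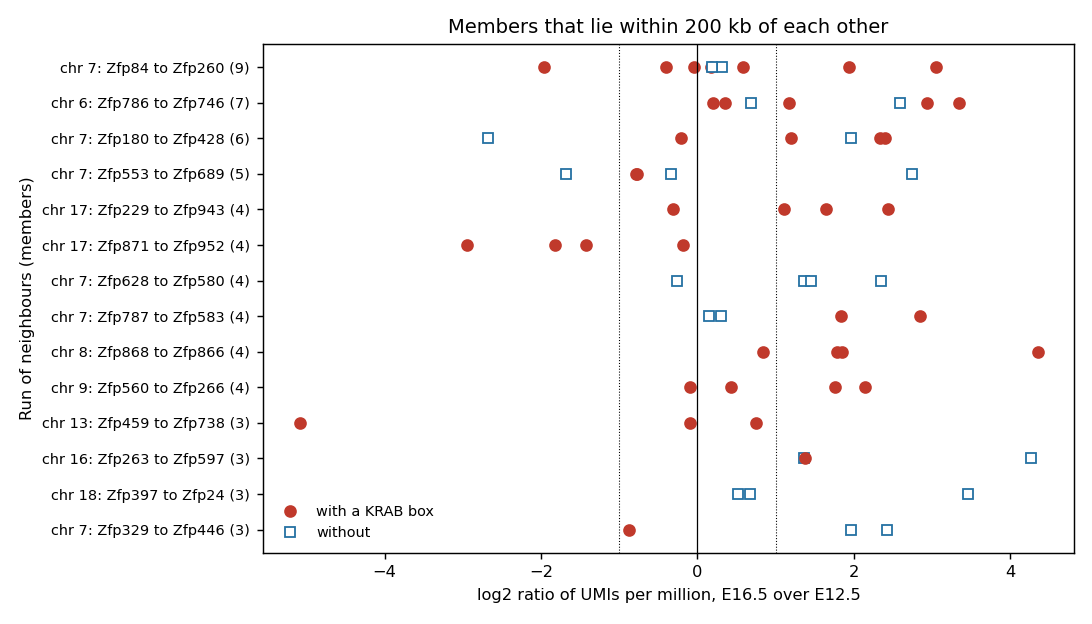
log2 ratio of CPM of E16.5 over E12.5 (x axis) for members in the 14 runs of at least 3 neighbours (y axis, chromosome, first and last member, number of members). Filled circles carry a KRAB box and open squares do not; 8 runs hold members on both sides of 0, 5 lie wholly above it, and the run from Zfp871 to Zfp952 lies wholly below 0.

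Promoters of 156 of the 196 members were in the RefSeq table, with 188 promoters in all. Among promoters of members lower at E16.5 than at E12.5, 4 of 20 (20%) held CACGTG, against 3 of 85 (3.53%) of the higher members and 6 of 83 (7.23%) of those within 2-fold. Over all genes of the same minimum 10.6% of promoters held it, and over all 32851 promoters of this length 7.15%. The 4 promoters include those of Zfp819, which holds it at 2 places, Zfp459 and Zfp296, as printed above. CCTCAG was found in 20%, 31.8% and 31.3% of the lower, higher and within groups, beside 26.7% of all genes of the same minimum and 26.8% of all promoters. GCGCATG was found in 10.0%, 12.9% and 4.82%, beside 8.23% and 3.91%. The groups are small, the median GC content was 53.5%, 59.0% and 56.7%, and a word in a promoter is a description of the sequence alone.

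Within each stage, clusters of cells, formed with all numbered Zfp genes left out of the clustering genes, showed how the levels were distributed. The E12.5 cells of the Y-linked cluster (cluster 2, led by Zfy1 and Ddx3y) hardly differed from the main E12.5 cluster. In cluster 2, 0 members were higher and 4 (2.05%) lower, against 1.13% and 4.21% of all genes. The 4, Zfp503, Zfp14, Zfp362 and Zfp282, had at most 5.45 CPM in either cluster. Both clusters had a median of 13 members per thinned cell.

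At E14.5 the cells fell into 5 clusters of at least 200 cells. Cluster 7 was led by Msx1, Stra8 and Rec8, which mark entry into meiosis, cluster 1 by Cdh15 and Dlx3, cluster 5 by G0s2 and Shisa2, cluster 6 by Tppp and Fgf11, and the smallest, cluster 8, by Abhd18 and P4ha3. Cluster 6 over cluster 1 gave the largest contrast, with 33 members higher (16.8%) and 31 lower (15.8%), against 16.2% and 24.3% of all genes, so that the higher share was near the background and the lower share under it. Zfp672 had 188 CPM in cluster 6 and 24.9 in cluster 1 (7.54-fold), and Zfp541 65.8 and 9.25 CPM (7.12-fold). Zfp462 had 7.72 and 69.8 CPM in the same clusters, 9.04-fold lower in cluster 6, and Zfp64 3.02 and 21.7 CPM. These 4 genes, picked among the called members, were also past 2-fold between E16.5 and E12.5. Whether the differences between clusters and between stages have a common source was not tested. Median depths were 9424 UMIs in cluster 6, 13132 in cluster 1 and 11191 in cluster 7.

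Against cluster 7, cluster 6 had 5 members higher (2.56%) and 20 lower (10.3%), where 4.05% and 15.5% of all genes were. Cluster 1 had 6 higher (3.06%) and 10 lower (5.10%) against cluster 7, where 8.17% and 7.19% of all genes were. Zfp296, at 1.95 CPM in cluster 1 and 0.289 in cluster 7, and Zfp750, at 1.04 and 0.124 CPM, kept some RNA in cluster 1. Their cluster 7 values rested on 7 and 3 UMIs. In cluster 5 they had 0.970 and 0.848 CPM, on 8 and 7 UMIs. Cluster 5 over cluster 7 gave 4 higher (2.04%) and 1 lower (0.510%), against 2.41% and 1.46% of all genes. The lower one, Zfp819, had 2 UMIs in cluster 5 and an interval that includes 0. Cluster 8 over cluster 6 gave 2 higher (1.05%) and 15 lower (7.85%), against 3.98% and 6.34%, on 208 cells of cluster 8. Of these, 1 of the higher and 8 of the lower members had an interval that includes 0, and 1 of the lower, Zfp275, had 0 UMIs in cluster 8, where the lower members had at most 12. The members' share of UMIs per cell had a median of 0.469% in cluster 8, 0.443% in cluster 6, 0.368% in cluster 1, 0.402% in cluster 5 and 0.412% in cluster 7.

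At E16.5, cluster 10 (3328 cells, with Myom3 among its leading genes) was set over cluster 9 (1708 cells, led by the meiotic cohesin gene Rad21l and Pcdh17). This gave 24 members higher (12.3%) and 10 lower (5.13%). Both shares lay under those of all genes, 14.5% and 6.37%. The median log2 ratio was 0.35, beside 0.21 over all genes. Zfp612 had 60.3 CPM in cluster 10 and 20.6 in cluster 9 (2.92-fold). Zfp362 had 7.23 and 2.14 CPM, and Zfp296 2.58 and 0.578 CPM. In the other direction Zfp667 had 23.8 and 73.8 CPM, Zfp850 10.9 and 28.1 CPM, Zfp583 9.65 and 21.2 CPM, and Zfp638 44.6 and 92.1 CPM. Zfp541 was close to level, with 80.6 and 75.2 CPM. The genes named for clusters were chosen after their values were seen.

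**Figure D5:**
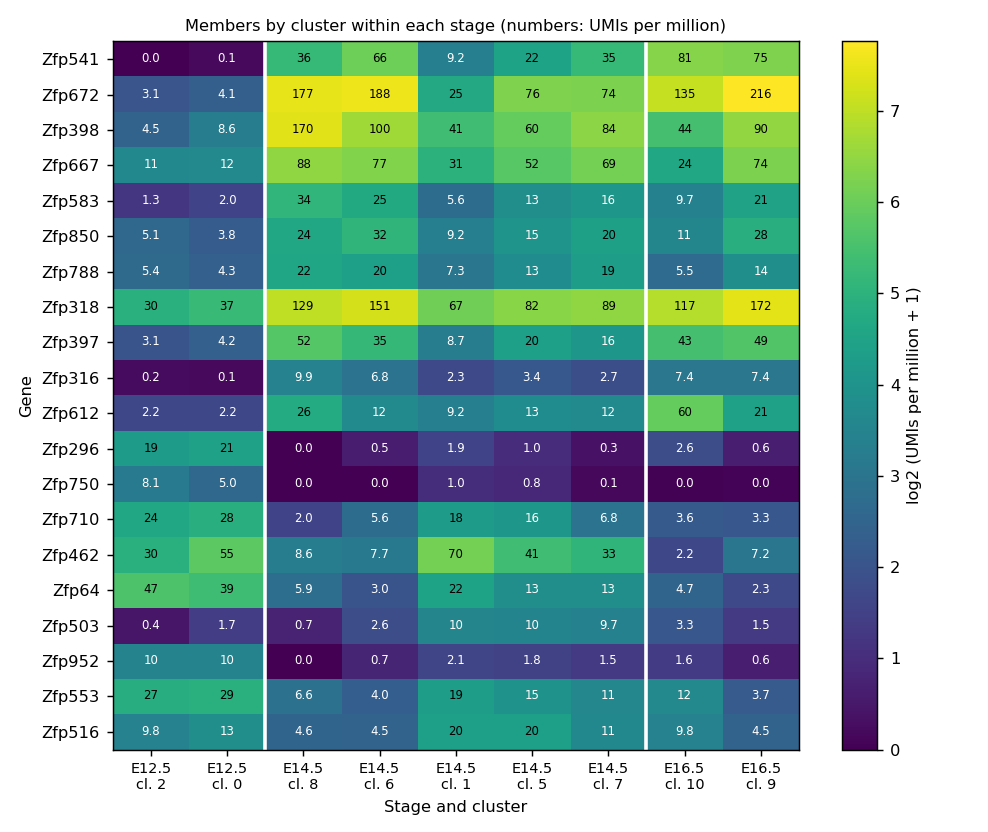
CPM of 20 members, chosen after their values were seen, in the clusters of each stage with at least 200 cells (colour: log2 of CPM plus 1; numbers: CPM). At E14.5 Zfp672 reads 188 CPM in cluster 6 and 24.9 in cluster 1, and Zfp462 7.72 and 69.8 CPM, while Zfp296 is at most 2.58 CPM and Zfp750 at most 1.04 CPM in clusters of E14.5 and E16.5.

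The spread between cells of 1 stage was read as the ratio of variance to mean in cells thinned to 5000 UMIs, where counting alone gives 1. Its median was 1.01 at each stage over the 142, 176 and 173 members of sufficient level (a thinned mean of at least 0.02 UMIs). Over all genes of the same minimum and level it was 1.02, 1.03 and 1.03 in time order. At low means the ratio lies close to 1 for most genes (median 1.01 for genes with a mean like that of Zfp952 at E12.5), so a value near 1 does not show that a member was even between cells. A ratio of 1.2 or more was reached by Zfp952 at E12.5 (1.21, above 99.0% of 1976 genes of like mean) and Zfp672 at E14.5 (1.29, above 97.0% of 1152). This was 0.704% and 0.568% of the members of sufficient level, and 0% at E16.5. The shares of all genes of the same minimum and level were larger, with 2.65%, 5.17% and 5.73% in time order. Zfp296 at E12.5 (1.08) and Zfp462 at E16.5 (1.11) lay above 96.8% and 96.9% of genes of like mean. At E16.5 Zfp672 had a ratio of 1.12, as did Zfp318 and Zfp398. The value of Zfp672 at E14.5 goes with its levels in that stage's clusters, from 24.9 CPM in cluster 1 to 188 CPM in cluster 6.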

How the data were processed

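The values the authors deposited, for 14133 genes in 19144 cells, are the natural log of 1 plus UMIs per 10000 of the cell. The build mm10 (GRCm38), FastQC and version 2.0.0 of Cell Ranger are named, per the submitters' processing notes. Settings, filters, the use of strand and the number of embryos were not given in the sources used here. Undoing the natural log gave whole UMIs for 100.0% of 68606039 non-zero values (tolerance 0.01), and these were summed. The plan named such sums, and 1 library per stage gave no test.

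The members and gene lists were chosen with earlier results of these data known. Named genes were the role lists' members, the 8 of highest CPM, the 8 largest ratios in each direction per comparison and the 5 of largest variance over mean per stage; others are said to be chosen after their values were seen. A gene with 0 UMIs in a stage or cluster was set to 3 counts there, as a bound, and no ratio was given where the bound pointed the other way. Doublets were called per library (scanpy 1.11.5, expected rate 6%); 38 cells (0.198%) were marked and left out, so doublets may remain. Clustering used 2000 variable genes without 15 numbered Zfp genes, 30 principal components, 15 neighbours and a Leiden resolution of 0.5, giving 11 clusters. KRAB boxes (pyhmmer 0.12.3, 35 seed windows, E-value limit 0.001) and C2H2 fingers came from GENCODE M21 translations on GRCm38 and not from RefSeq proteins as planned; all 196 members matched. Sums and intervals (scipy 1.17.1) were tested on simulated counts. Alternatives were other scalings, thinned cells, means over cells, other minimums and folds, and sums with other cells kept or left out.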

Additional observations from a re-analysis of the deposited data

How the results depend on the processing

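No paired analysis was possible because each stage is 1 library. For the same reason no replicate was left out. Depth limits mainly the members under 100 UMIs (7 at E12.5, 3 at E14.5, 6 at E16.5).

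The median log2 ratio at E14.5 over E12.5 was 0.35 with median-of-ratios scaling, 0.41 with TMM, 0.61 in cells thinned to 5000 UMIs and 0.57 with no minimum. At E16.5 over E14.5 it was 0.07 with TMM and 0.21 with a minimum of 10 CPM, and at E16.5 over E12.5 it was 0.38 with median-of-ratios scaling, 0.42 with TMM and 0.94 with a minimum of 10. With that minimum the members lower by 2-fold numbered 10, 7 and 12 in the 3 comparisons. With no minimum, all numbered genes with a ratio counted, from 307 rows, and the numbers grew to 110 higher and 32 lower, 40 and 38, and 134 and 41. A limit of 3-fold gave 38 higher and 8 lower at E14.5 over E12.5, 2 and 7 at E16.5 over E14.5, and 57 higher at E16.5 over E12.5. A limit of 1.5-fold gave 50 and 32 at E16.5 over E14.5. The share of all genes was not taken at these other minimums and folds. The counts therefore show how the calls move and not how the members stand against other genes. The cause of these shifts was not tested. The median over cells of the members' share at E14.5 was 0.406%. The median number of members per cell was 47.0, 33.0 and 39.5 at full depth and 8.0, 11 and 12 at 3000 UMIs, since depth sets it.

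Of 92 named ratios past 2-fold, all 92 kept their sign in the 8 settings that recompute them; 86 stayed past 2-fold with either scaling, 90 in thinned cells, 91 as means over cells and 91 without the Y-linked cluster. Leaving out the 19 members that share at least 5% of their 3′ words with other genes, an alternative chosen after seeing the data, moved no count by over 1.5 times.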
